A study of Homo sapiens with 8 samples.

Results

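PAX1 to PAX9 encode the paired box (PAX) transcription factors, and these 9 genes were chosen as the complete human family by gene symbol. All 9 were found among the 20098 protein-coding genes annotated by GENCODE on chromosomes 1 to 22 and X of GRCh37. PAX proteins bind DNA through a paired domain, in several members together with a homeodomain, and they direct the formation of organs such as kidney, eye, thyroid, skeletal muscle and pancreatic islets in the embryo. Genes of this kind are well-known targets of Polycomb repressive complex 2, whose catalytic subunit EZH2 trimethylates lysine 27 of histone H3 (H3K27me3) over genes that a cell type does not use. Trimethylation of lysine 4 (H3K4me3), in contrast, is found at the starts of active genes and of genes that are held ready for activation.

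PC9, a human lung adenocarcinoma cell line, was treated for 5 days with DMSO, the vehicle, or with 1 μM GSK126, a small molecule inhibitor of EZH2. H3K27me3 and H3K4me3 were each measured by ChIP-seq in 2 replicates of each treatment, which makes 8 libraries, and chromatin of D. melanogaster was added to every reaction together with an antibody to the fly histone variant H2Av. PC9 is a single cell line, and the study calls its replicates biological. With 2 pairs the smallest p that an exact sign-flip test allows is 0.5, and the values of both replicates are therefore given in place of a test.

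The measurement was the length of each gene that lay inside islands, the regions enriched for sequencing tags that the SICER algorithm finds. Each gene was taken as its annotated body plus 2000 bp upstream, and the covered length is the number of bases of that window inside islands. The island lists came in a pair of normalizations. In the standard lists both treatments of a replicate held equal numbers of human tags, whereas in the spike-in lists tags had been removed according to the fly tags. The fitted tag density of the H3K27me3 spike-in lists was 1.65 tags per 200-bp window in DMSO replicate 1 and 2.33 in DMSO replicate 2. The treated libraries had 0.382 and 0.455, which is 23.1% and 19.6% of DMSO. Islands were thus called on fewer tags after treatment, and the covered length of a spike-in list reflects that difference in tag number as well as where the tags lay. For H3K4me3 the density was 1.77 and 0.302 with DMSO, and 1.48 and 0.263 with GSK126 after spike-in, so replicate 2 of H3K4me3 had the lowest depth of the study. Of the markers that define the cells, 6 of 6 epithelial genes (EPCAM, CDH1, KRT8, KRT18, KRT19 and EGFR) had an H3K4me3 island at a coding transcript start in both DMSO replicates and 0 of 6 had H3K27me3 there. NKX2-1 and SFTPC, 2 of 4 markers of lung adenocarcinoma, carried both marks, whereas NAPSA and SFTPB had no H3K4me3. CDH5 and COL1A1 were the members with H3K4me3 among 6 markers of blood, endothelial and fibroblast cells.

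The family separated into 3 patterns, which the map of islands by distance from the gene start shows. PAX1, PAX2, PAX3, PAX4, PAX5 and PAX7 were broadly covered by H3K27me3 with DMSO, and each of these 6 genes kept more than 50% of the covered length with GSK126 in both replicates of the spike-in lists. PAX6 carried a short H3K27me3 region at its outermost start next to an H3K4me3 island, and the H3K27me3 islands of the spike-in lists were absent with GSK126. In the standard lists this region was listed only in replicate 2, with both treatments. PAX8 and PAX9 had no H3K27me3 island in any of the 8 lists of that mark and carried H3K4me3 over transcript starts inside the gene.

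**Figure D1:**
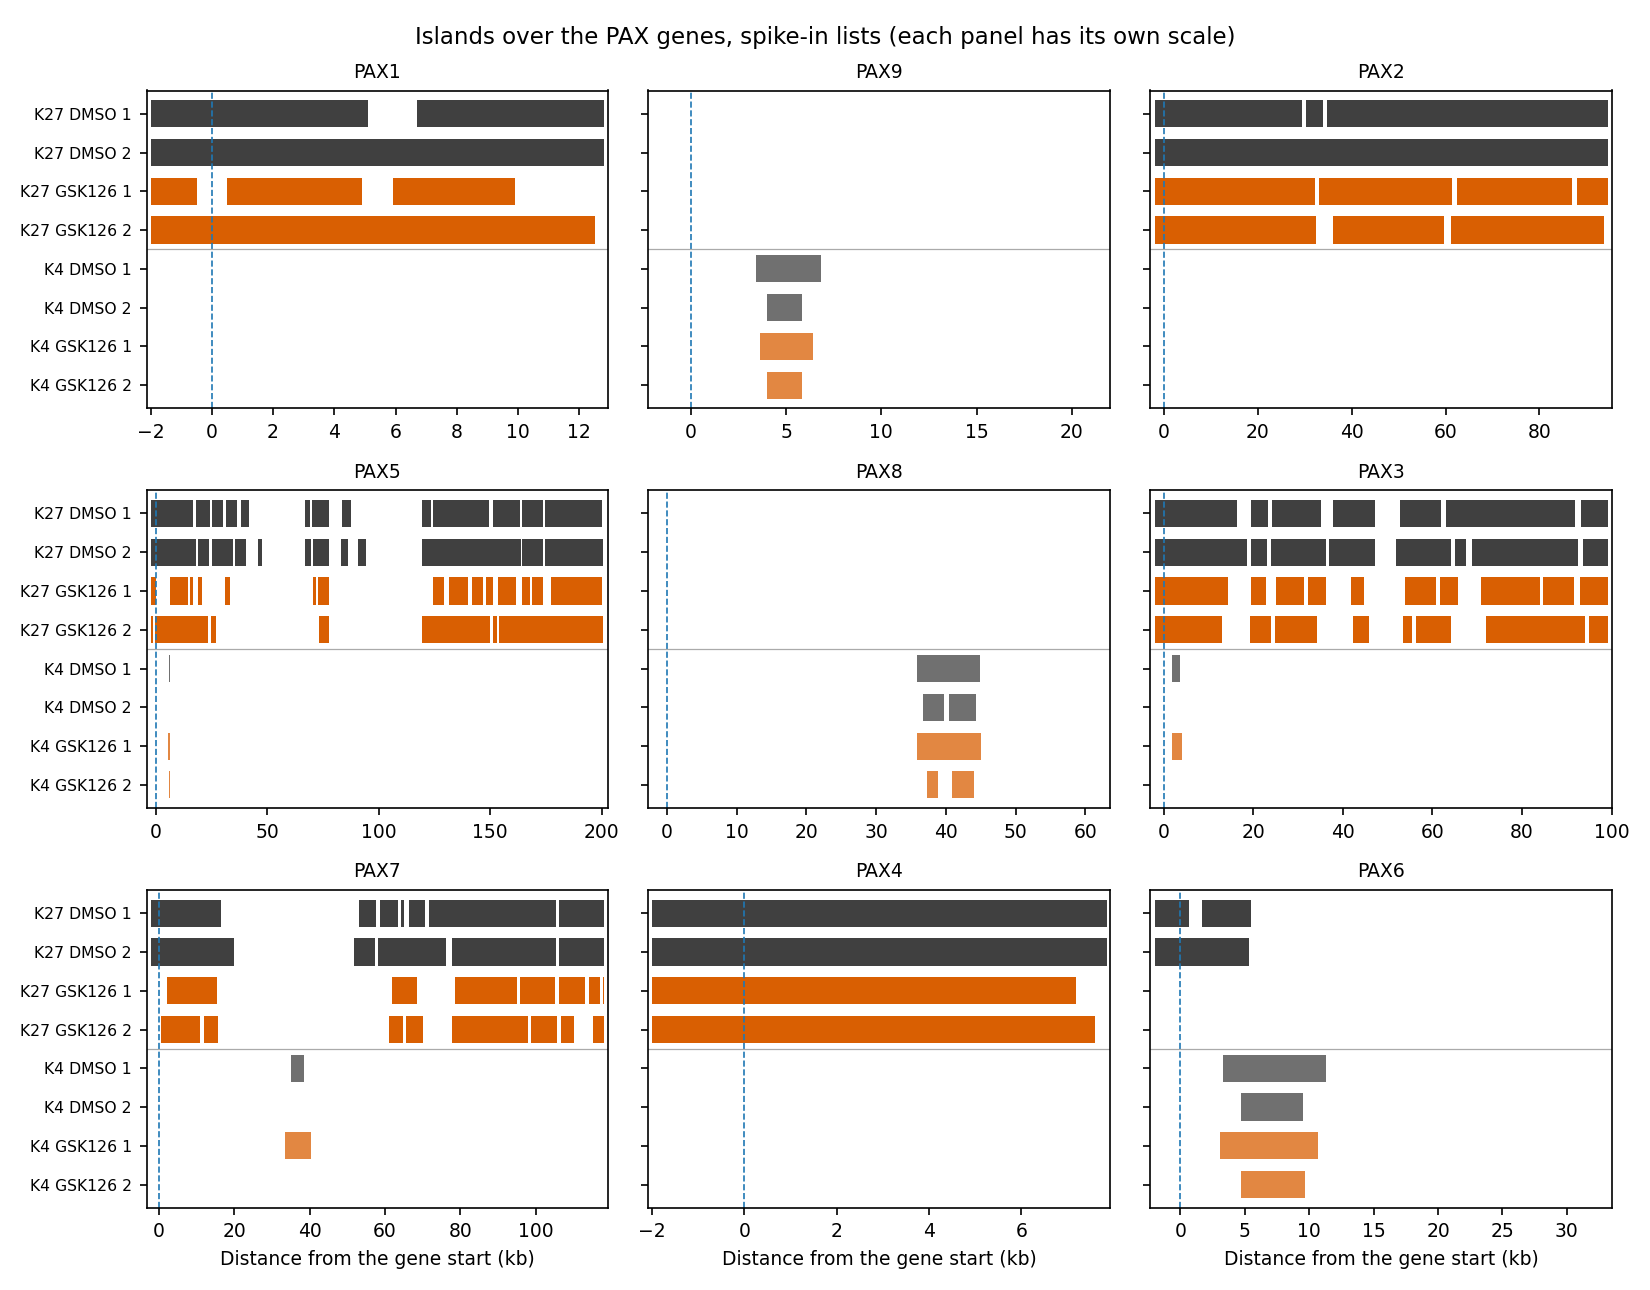
Islands over the 9 PAX genes (bars) by distance from the gene start in kb, with a panel and a scale for each gene; the upper 4 rows are H3K27me3 (K27) and the lower 4 rows H3K4me3 (K4), with DMSO in grey and GSK126 in orange, replicates 1 and 2, spike-in lists. The dashed line is the outermost annotated start, and islands are drawn only within the gene and 2000 bp upstream. Dark bars span PAX2 and PAX4 almost without a gap, the H3K27me3 bars of PAX6 have no orange counterpart, and PAX8 and PAX9 hold H3K4me3 bars alone.

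The DNA at the starts is shown first, because PRC2 and H3K4me3 are both known to favour CpG-rich DNA and the PAX starts are far from alike in this respect. The windows hold 250 bases before and 50 bases from the annotated start onwards, read 5′ to 3′ on the strand of the gene from GRCh37, and capitals mark each CG dinucleotide, which reads the same on both strands. PAX4 (chr7:127258147-127258446, minus strand) and PAX7 (chr1:18957090-18957389, plus strand) are shown as a CpG-poor and a CpG-rich start, both inside H3K27me3 islands with DMSO in both replicates. The PAX9 pair shows the outermost start (chr14:37126523-37126822, plus strand), which had no island of either mark, and the inner coding start 4292 bp downstream (chr14:37130815-37131114), which lay in an H3K4me3 island in every H3K4me3 list. The PAX6 window (chr11:31839460-31839759, minus strand) is the outermost start, which had an H3K27me3 island in both DMSO spike-in lists and in neither treated one. In the standard lists only replicate 2 had an island there, with DMSO and with GSK126.

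PAX4 gene start: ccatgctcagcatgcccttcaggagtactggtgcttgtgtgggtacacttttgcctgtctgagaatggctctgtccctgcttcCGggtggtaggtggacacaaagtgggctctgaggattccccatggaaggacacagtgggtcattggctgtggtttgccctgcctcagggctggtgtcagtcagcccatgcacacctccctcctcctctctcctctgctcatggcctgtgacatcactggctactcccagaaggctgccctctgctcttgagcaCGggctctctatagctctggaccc

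PAX7 gene start: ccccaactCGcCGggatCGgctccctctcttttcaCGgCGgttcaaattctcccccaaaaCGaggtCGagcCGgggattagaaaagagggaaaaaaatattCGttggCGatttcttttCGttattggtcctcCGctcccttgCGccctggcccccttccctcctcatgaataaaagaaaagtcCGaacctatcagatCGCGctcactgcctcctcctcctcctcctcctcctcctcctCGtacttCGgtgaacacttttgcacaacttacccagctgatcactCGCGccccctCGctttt

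PAX9 gene start: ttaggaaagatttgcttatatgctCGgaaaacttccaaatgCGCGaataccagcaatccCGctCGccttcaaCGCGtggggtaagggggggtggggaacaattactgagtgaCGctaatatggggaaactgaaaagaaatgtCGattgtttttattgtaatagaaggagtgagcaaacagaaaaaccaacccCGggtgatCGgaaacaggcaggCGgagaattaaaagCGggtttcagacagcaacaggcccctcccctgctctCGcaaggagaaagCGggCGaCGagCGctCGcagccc

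PAX9 inner coding start: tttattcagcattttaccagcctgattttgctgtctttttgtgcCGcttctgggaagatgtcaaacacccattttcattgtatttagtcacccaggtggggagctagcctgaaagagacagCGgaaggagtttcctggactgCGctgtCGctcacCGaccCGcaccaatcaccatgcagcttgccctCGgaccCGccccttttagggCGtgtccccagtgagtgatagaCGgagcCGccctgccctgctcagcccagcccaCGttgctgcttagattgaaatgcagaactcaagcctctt

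PAX6 gene start: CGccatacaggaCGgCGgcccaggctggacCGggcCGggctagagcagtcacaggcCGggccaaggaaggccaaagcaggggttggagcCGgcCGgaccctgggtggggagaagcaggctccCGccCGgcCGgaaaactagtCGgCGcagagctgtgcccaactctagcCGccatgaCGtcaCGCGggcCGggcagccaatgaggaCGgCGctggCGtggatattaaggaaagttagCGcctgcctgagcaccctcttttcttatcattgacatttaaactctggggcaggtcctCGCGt

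The 300 bases at the PAX4 start held 2 CG, and 93% of the 20094 gene starts with sequence had at least as many. The PAX7 start held 21 CG and the PAX6 start 24, against a median of 18 over all gene starts. PAX5 had 30 CG, the highest number of the family, and 24.1% of all gene starts had as many or more. At PAX9, the start without an island held 19 CG and the inner start under H3K4me3 held 12. At 6 of the 9 gene starts the ratio of observed to expected CG was at least 0.6 with a GC content of at least 50%, a combination found at 54.9% of all gene starts, and the exceptions were PAX2 at a ratio of 0.561, PAX8 at 0.483 and PAX4 at 0.0787. At least 1 CG was present at 97.7% of all gene starts. PAX4 with 2 CG was covered by H3K27me3 over its whole window, and PAX9 with 19 CG had no island of this mark. The gene start counts describe the outermost start only, and a relation between the number of CG and either mark was not tested.

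**Figure D2:**
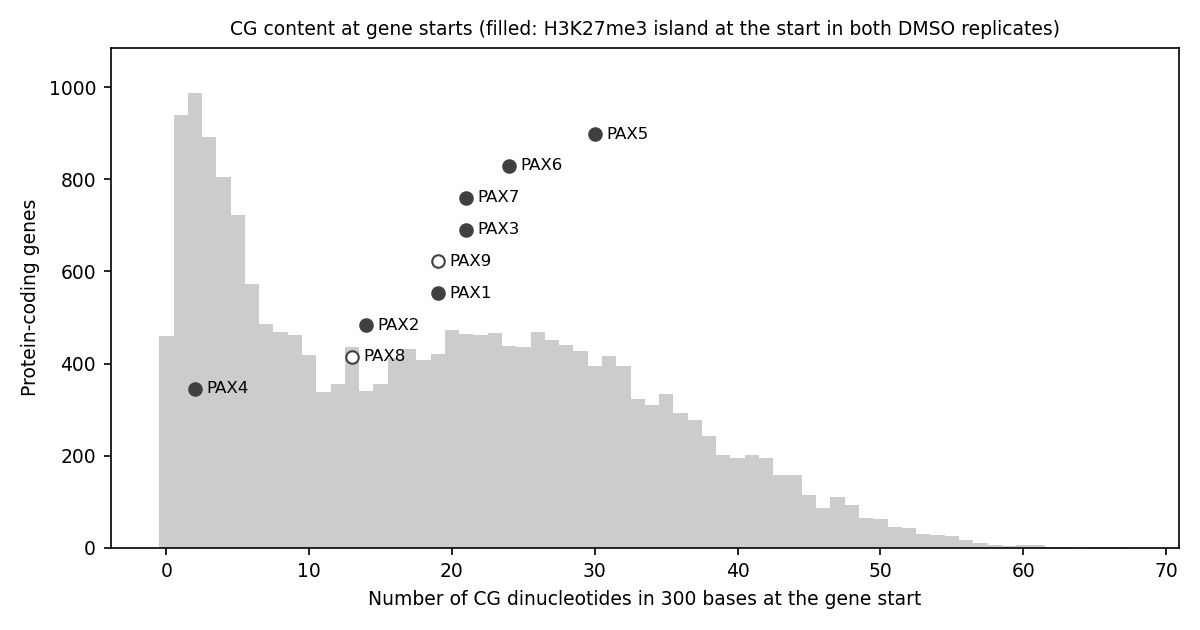
Number of CG dinucleotides in the 300 bases at the gene start (x axis) for 20094 protein-coding genes (grey histogram, number of genes on the y axis) and for the 9 PAX genes (points, placed at arbitrary heights). Filled points had an H3K27me3 island at the start in both DMSO replicates; the open points, PAX8 with 13 CG and PAX9 with 19 CG, lie between filled points such as PAX4 with 2 and PAX5 with 30.

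In DMSO treated cells, 7 of the 9 PAX genes had an H3K27me3 island over the window in both spike-in lists, whereas 27.7% of all protein-coding genes did. The islands covered at least 50% of the window for 6 of the 9, against 11.6% of all genes. No island of H3K27me3 in any list was found for 2 of 9, PAX8 and PAX9, against 67% of all genes. The order of the mean covered share was PAX4 at 100% of the window, PAX2 at 99.2%, PAX1 at 94.6%, PAX3 at 87.6%, PAX7 at 68.2%, PAX5 at 65.9% and PAX6 at 19.6%. The replicates of PAX4, PAX2, PAX1 and PAX3 overlapped with those of the next gene in that order, and so did those of PAX7 and PAX5, whereas PAX3 stood above PAX7 and PAX5 above PAX6 in both replicates.

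**Figure D3:**
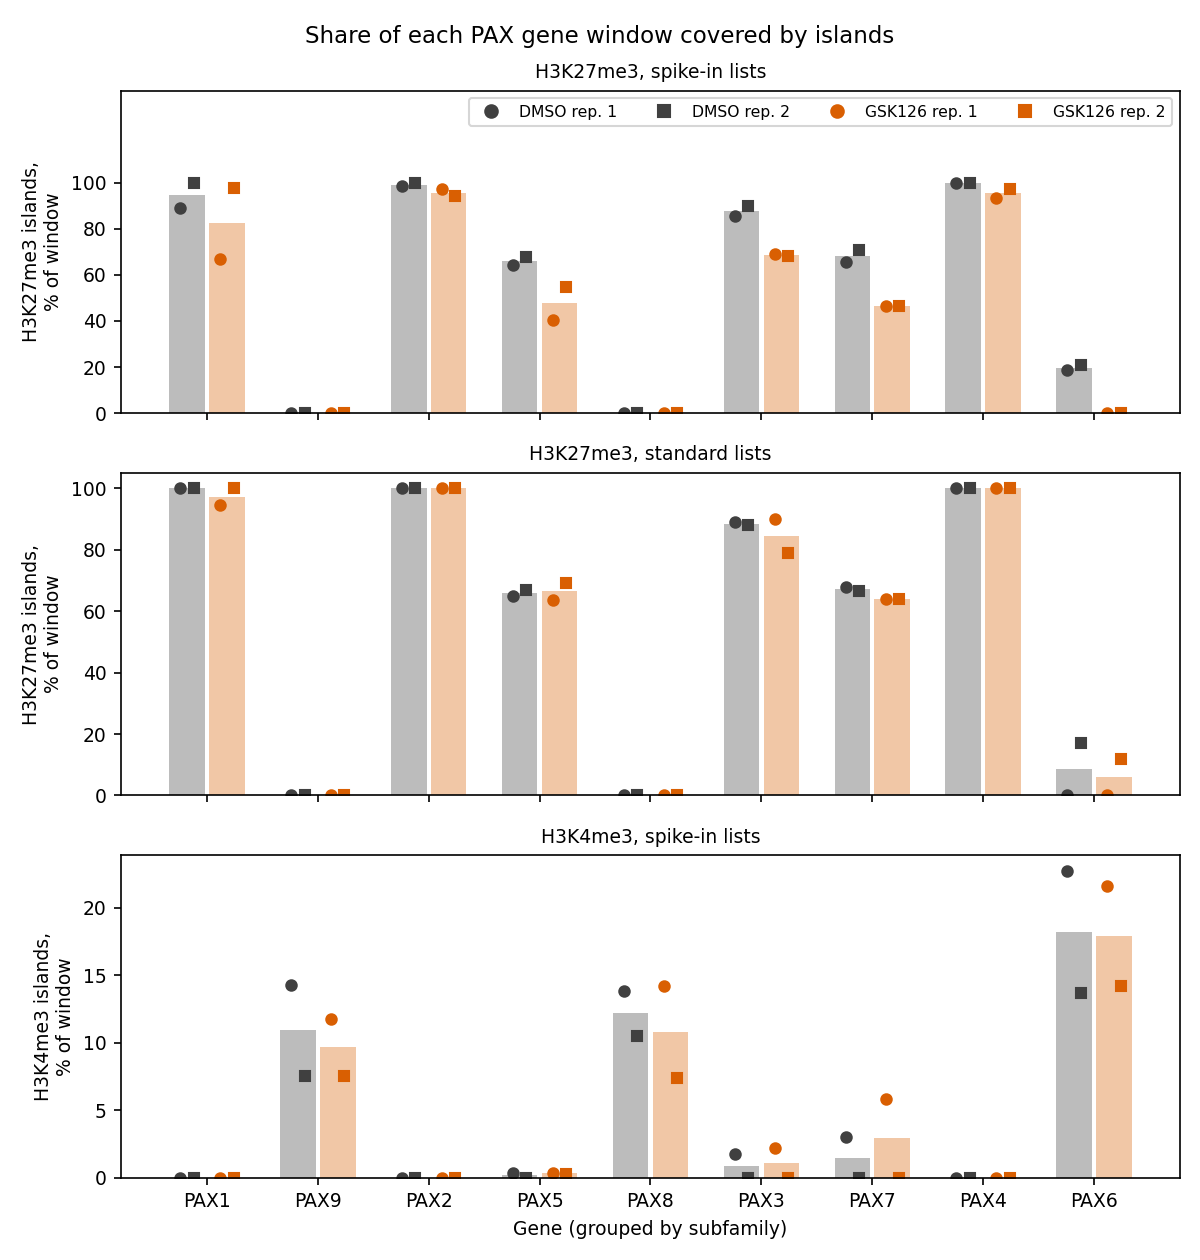
Share of each PAX gene window inside islands, in percent, for H3K27me3 in the spike-in lists (top), H3K27me3 in the standard lists (middle) and H3K4me3 in the spike-in lists (bottom, with its own scale). Circles and squares are replicates 1 and 2, bars are their mean, DMSO is grey and GSK126 orange. In the top panel the orange bars of PAX2 and PAX4 stay at 95.6% and 95.4% of the window and that of PAX6 is at 0, while in the middle panel the bars of each broadly covered gene are nearly level.

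Summed over the 9 genes, H3K27me3 islands of the spike-in lists covered 420 and 442 kb in DMSO replicates 1 and 2. The treated libraries had 320 and 351 kb. They thus kept 77.8% ± 2.17 (SD, n = 2) of the covered length, a log2 ratio of -0.36 ± 0.04, and the groups did not overlap. Over all protein-coding genes the same sum was 47.9% ± 0.694 of DMSO, a log2 ratio of -1.06 ± 0.02. In 7 of the 7 PAX genes with islands the treated length was below DMSO in both replicates, against 89.7% of the 5573 genes that had an island in both DMSO lists. At least 50% of the DMSO length was kept in both replicates by 6 of these 7, against 28.1% of such genes. All 6 belonged to the genes covered over at least 50% with DMSO, and among the 2339 genes of that class 52.8% kept as much. This class was defined after the data had been seen. The median share kept was 82.4% for the 6 PAX genes, with a range of 68.0% to 96.4%, and 61.6% for the class, whose upper quartile was 84.6%.

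**Figure D4:**
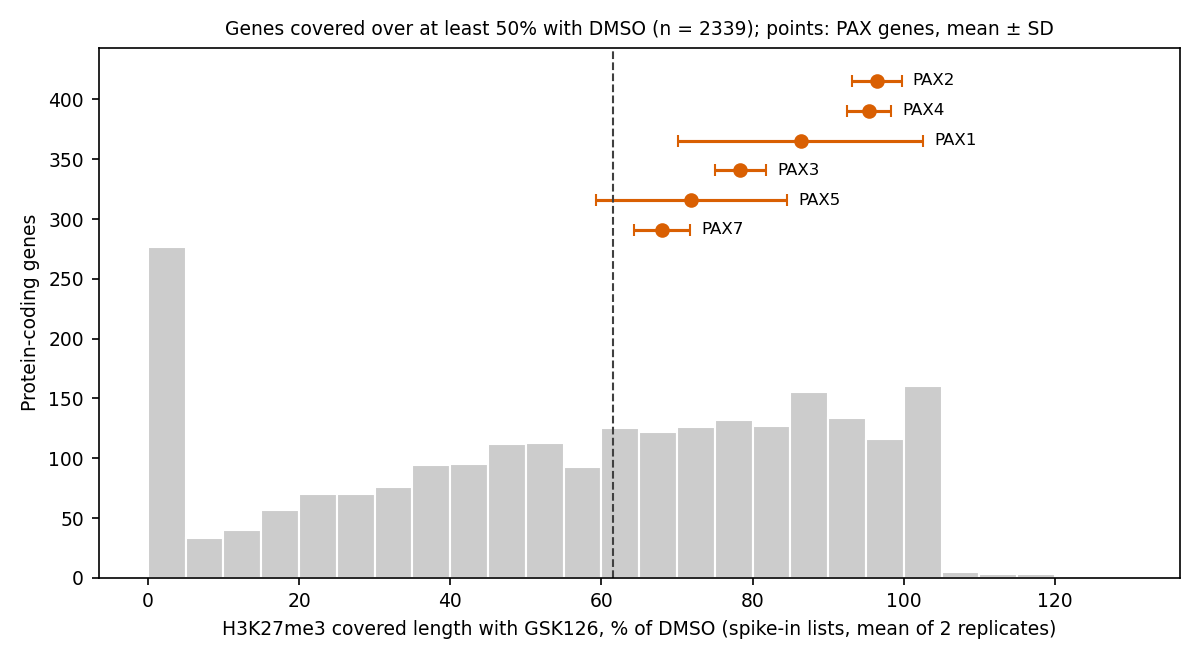
H3K27me3 covered length with GSK126 as a percent of DMSO (x axis, spike-in lists, mean of 2 replicates) for the 2339 protein-coding genes covered over at least 50% with DMSO (grey histogram, number of genes on the y axis; dashed line, median of 61.6%). Points are the 6 PAX genes of that class with SD bars, placed at arbitrary heights, and run from PAX7 at 68.0% to PAX2 at 96.4%, all to the right of the median.

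PAX1 and PAX9, which pattern the vertebral column and, in the case of PAX9, the teeth and thymus, were opposites in these cells although they form one subfamily. PAX1 (chr20:21686297-21699119, 12.8 kb) was covered by H3K27me3 over 13.2 kb (replicate 1) and 14.8 kb (replicate 2) of its 14.8-kb window with DMSO, whereas treated libraries had 9.90 and 14.5 kb. The treated value of replicate 2 lay above the DMSO value of replicate 1, so that the groups overlapped, and 86.4% ± 16.2 (SD, n = 2) of the length was kept. In DMSO replicate 2 a single island of 30.6 kb reached from -16.9 to 13.7 kb relative to the start. The treated library of replicate 1 held 3 islands, and the gap between the first pair lay over the start, from -497 to 504 bp relative to it. No H3K4me3 island touched PAX1 in any list.

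PAX9 (chr14:37126773-37148567, 21.8 kb) had no H3K27me3 in its window or within 50 kb on either side in the spike-in lists. Its H3K4me3 island measured 3.4 and 1.8 kb with DMSO and 2.8 and 1.8 kb with GSK126. The island lay over the coding transcript start 4292 bp inside the gene in every library, and none reached the outermost start. The treated and untreated values shared the same lowest value of 1.8 kb, which came from the shallow replicate.

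PAX2, PAX5 and PAX8, the subfamily of kidney, B-cell and thyroid regulators, split in the same way. PAX2 (chr10:102495153-102589701, 94.5 kb), which directs formation of the kidney and urinary tract, was the most completely covered long gene of the family. Its H3K27me3 islands covered 94.9 and 96.5 kb with DMSO and 93.7 and 90.8 kb with GSK126, out of a window of 96.5 kb. Both treated values were below both DMSO values, yet 96.4% ± 3.28 (SD, n = 2) of the length was kept. In DMSO replicate 2 the gene lay within 1 island of 120.6 kb that reached from -15.6 to 105 kb relative to the start, and the treated library of this replicate held 3 islands with gaps from 32.4 to 36.0 kb and from 59.6 to 61.0 kb after the start. In the standard lists the window was covered entirely in all 4 libraries, and there was no H3K4me3 island in any list.

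PAX5 (chr9:36833266-37034265, 201 kb), which commits lymphoid progenitors to the B-cell lineage, is the longest member. H3K27me3 covered 130 and 138 kb with DMSO and 81.9 and 111 kb with GSK126. All treated values were below the untreated ones, and 71.9% ± 12.6 (SD, n = 2) of the length remained. In every spike-in list the domain had a gap between 94.5 and 119 kb after the start, and it consisted of 13 and 12 islands with DMSO and of 15 and 7 with GSK126, so the number of islands rose in replicate 1 and fell in replicate 2. A short H3K4me3 island of 0.8 kb without exonic bases lay about 2 kb from the nearest coding start in DMSO replicate 1. It was also present with GSK126 at 0.8 and 0.6 kb, but absent from the list of DMSO replicate 2. The tag density of replicate 2 was 0.302 with DMSO and 0.263 with GSK126, and the cause of the absence was not tested.

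PAX8 (chr2:113973574-114036498, 62.9 kb), a regulator of thyroid and kidney development, had no H3K27me3 in its window or in the flanks of 50 kb. H3K4me3 islands covered 9.0 and 6.8 kb with DMSO and 9.2 and 4.8 kb with GSK126. These islands did not lie at the outermost start but far inside the gene, over the coding starts 37.1 and 43.5 kb downstream of it. In replicate 2 with GSK126 the island nearest the first of these starts missed it by 156 bp. The annotation places the start of RP11-65I12.1 under the same H3K4me3 region, and the list of islands cannot assign the mark to one gene or the other.

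PAX3 and PAX7, regulators of neural crest and of skeletal muscle progenitors, were both broadly covered and lost more length than PAX2. PAX3 (chr2:223064606-223163717, 99.1 kb) was covered over 86.5 and 90.7 kb with DMSO and over 69.9 and 68.9 kb with GSK126. The groups did not overlap, and 78.4% ± 3.43 (SD, n = 2) of the length was kept. The 2000 bp around the start remained covered in all 4 spike-in libraries. An H3K4me3 island of 1.8 kb with DMSO and 2.2 kb with GSK126 was found in replicate 1, 1578 bp from the nearest coding start and entirely inside the H3K27me3 domain, and replicate 2 had none in the spike-in lists. A 1.0-kb island of the standard lists was also present with GSK126 in replicate 2.

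PAX7 (chr1:18957340-19075360, 118 kb) was covered over 78.6 and 85.0 kb with DMSO and over 55.56 kb in both treated libraries, so that 68.0% ± 3.76 (SD, n = 2) of the length was kept. Although the treated lengths were equal, the islands were not the same bases, with 48.4 kb shared between replicates. Of the broadly covered genes, PAX7 kept the least length at its start. PAX5 also kept only 1064 and 1336 of 2000 bp there in the spike-in lists with GSK126, and PAX1 kept 1000 bp in replicate 1. At PAX7 the 2000 bp around the CpG-rich start shown above were covered entirely with DMSO. With GSK126 the islands of the spike-in lists covered 0 bp in replicate 1 and 339 bp in replicate 2. In the standard lists, at equal tag density, islands covered 2000 and 1939 bp of it with GSK126. An H3K4me3 island of 3.6 kb with DMSO and 7.0 kb with GSK126 lay in an intron in replicate 1, from 33.5 to 40.5 kb after the start with GSK126, inside the gap between the H3K27me3 islands, and replicate 2 had none. The same island measured 5.0 kb in the standard list with GSK126, at equal tag density.

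PAX4 and PAX6 form the subfamily of endocrine pancreas and eye. PAX4 (chr7:127250346-127258196, 7.85 kb), needed for insulin-producing beta cells, is the shortest member and was covered over all 9.85 kb of its window with DMSO in both replicates. With GSK126 the islands covered 9.20 and 9.60 kb, which is 95.4% ± 2.87 (SD, n = 2) of DMSO. Both treated values were lower, and the bases lost were at the 3′ end of the gene. The single island also shortened outside the gene, from 17.2 and 15.8 kb to 12.6 and 12.8 kb. When 10000 bp on both sides were included, the mean log2 ratio was -0.40 instead of -0.07.

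PAX6 (chr11:31806327-31839509, 33.2 kb), the regulator of eye and islet development, was the exception among the genes with H3K27me3. Its islands covered 6.51 and 7.31 kb with DMSO and 0 kb in both treated libraries. No island was left in both replicates for 1 of 7 PAX genes, this one, against 32% of all genes with islands. In the standard lists, where tag density was equal, H3K27me3 was listed only in replicate 2, over 6.0 kb with DMSO and 4.2 kb with GSK126. For DMSO replicate 1 the tag density was 1.65 in the spike-in list, which held islands here, and 1.36 in the standard list, which held none. The H3K27me3 islands of the spike-in lists were a pair of islands in replicate 1 and a single one in replicate 2, with outer edges at -2.89 and -2.69 kb and at 5.51 and 5.31 kb from the outermost start, where they met an H3K4me3 island of 8.0 and 4.8 kb. The marks overlapped over 2.2 kb in replicate 1 and 0.6 kb in replicate 2. With GSK126 the H3K4me3 island measured 7.6 and 5.0 kb, which is 99.6% ± 6.48 (SD, n = 2) of DMSO. It spanned 20 to 23 annotated coding starts of PAX6 and also the starts of PAUPAR and of ENSG00000285283, a protein-coding gene that shared the longest H3K27me3 island too. The longest DMSO islands of the other covered members held no other protein-coding gene.

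At the outermost start, taken as 1000 bp on both sides, an H3K27me3 island was present in both DMSO spike-in lists for 7 of 9 PAX genes, against 17.8% of all genes. With GSK126 it was still present in both replicates for 5 of these 7, against 49.9% of such genes, and PAX6 and PAX7 were those without. Divided by zone, the 7 genes kept 63.2% and 73.4% of the H3K27me3 length within 2000 bp of the start in replicates 1 and 2, and 77.2% and 79.8% in the rest of the gene. The upstream flank, which reached 50 kb from the gene but left out the 2000 bp of the start zone, kept 66.2% and 70.3%. The downstream flank of 50 kb kept 68.7% and 64.8%. The zones at the start summed over PAX2, PAX3 and PAX4 were covered completely in all 4 spike-in libraries, so the lower value at the start came from PAX7, PAX6, PAX5 and, in replicate 1, PAX1. Start zones had the same length in every gene, whereas the long genes made up most of the rest of the gene. PAX6, without islands after treatment, thus weighed more in the start sum than in the other, and the zones are not compared on equal terms. In the standard lists the start zones kept 96.7% and 93.8% of the DMSO length, and the rest of the gene 98.4% and 98.1%.

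**Figure D5:**
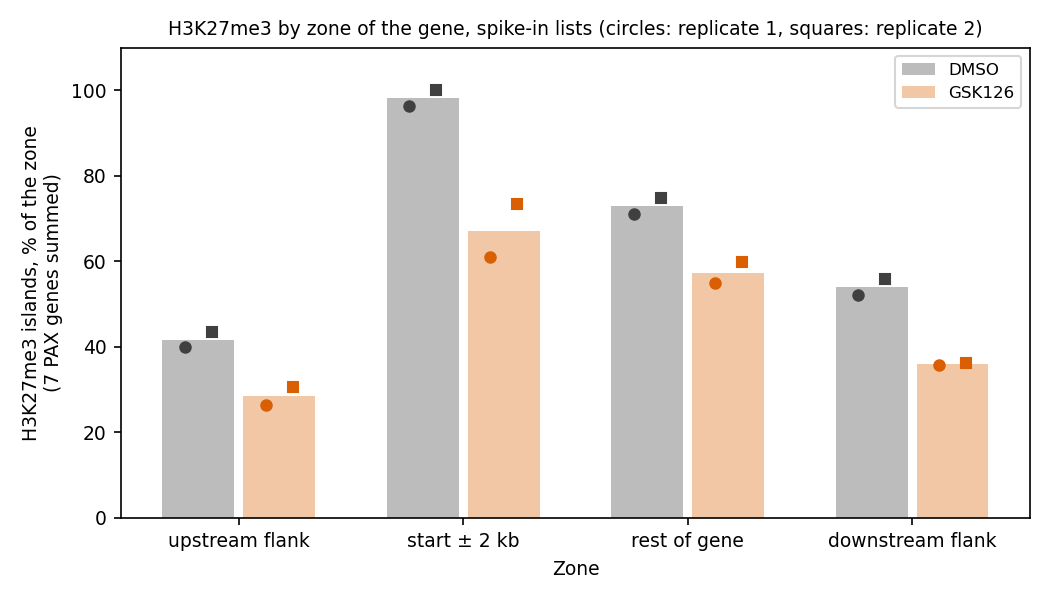
Share of each zone inside H3K27me3 islands of the spike-in lists, in percent, summed over the 7 PAX genes with islands, for the upstream flank, the start with 2 kb on both sides, the rest of the gene and the downstream flank. Circles and squares are replicates 1 and 2, bars their mean, DMSO grey and GSK126 orange. The start zones go from 96.4% and 100% with DMSO to 60.9% and 73.4% with GSK126, and in no zone do the treatments overlap. Start zones have the same length in every gene, whereas long genes weigh more in the rest of the gene.

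At equal tag number the difference in H3K27me3 length nearly disappeared. Equal tag numbers remove a difference in the total amount of the mark between treatments, so the standard lists cannot show one. By western blot and mass spectrometry the study found less total H3K27me3 in PC9 cells treated with GSK126. In the standard lists the members' sum was 424 and 432 kb with DMSO and 417 and 423 kb with GSK126, which is 98.1% ± 0.323 of DMSO and a log2 ratio of -0.03 ± 0.005, compared with 80.7% ± 7.79 over all genes. A shorter length in both replicates was found for 1 of 6 PAX genes with islands in both DMSO standard lists, against 56.3% of such genes. This was PAX7, at 81.6 and 80.1 kb with DMSO and 76.8 and 76.8 kb with GSK126. A longer length in both replicates was found for 0 of 6, against 5.45% of such genes. PAX1, PAX2 and PAX4 filled the window in both DMSO standard lists, so a longer length could not be counted for them. A change in island length outside the window enters neither count. When the means of both replicates were compared without pairing, 4 genes of the family were shorter, PAX1, PAX3 and PAX7 of these 6 and PAX6, which had no island in replicate 1 of either treatment. In PAX5 the treated length was below DMSO in replicate 1 and above it in replicate 2, and in PAX3 the order was the reverse.

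H3K4me3 was rare in the family. An island lay over the window in both DMSO replicates for 3 of 9 PAX genes (PAX6, PAX8 and PAX9), against 68% of all genes. At the outermost start none of the 9 had one, against 59.4% of all genes. Counted at any annotated coding start, the same 3 of 9 had an island in both replicates, against 64.6% of all genes. Both marks at the outermost start were found for 0 of 9 PAX genes, against 4.87% of all genes. PAX6 came closest, with the mark at inner starts as described. No H3K4me3 island was found over PAX1, PAX2 or PAX4 in any library, and those of PAX3, PAX5 and PAX7 were absent from DMSO replicate 2.

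In the spike-in lists the difference in H3K4me3 length between treatments was within the spread between replicates. Summed over the family it was 26.6 and 13.4 kb with DMSO and 29.6 and 12.2 kb with GSK126, a log2 ratio of 0.01 ± 0.20 (SD, n = 2), while that over all genes was -0.17 ± 0.01. At equal tag number the treated sums were 26.0 and 13.2 kb, slightly lower than DMSO in both replicates, and the log2 ratio was -0.0273 ± 0.00793. The members did not move together: in replicate 2 PAX8 was shorter with GSK126, at 4.8 against 6.8 kb, while PAX3, PAX5 and PAX6 were longer. The ratio over all genes was -0.16 ± 0.08 in these lists. Of the 3 genes with an island in both DMSO replicates, a shorter length in both was found for 0 of 3 after spike-in (37.1% of all 13669 genes with an island in both DMSO replicates) and a longer one for 0 of 3 (8% of all such genes). When the means of both replicates were compared without pairing, all 3 were shorter. In the standard lists 1 of 3 was shorter in both replicates, PAX8 at 8.4 and 4.8 kb with GSK126, against 37.8% of genes, and 0 of 3 were longer, against 6.76%.

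SIX2 to SIX6, EYA1 to EYA4, DACH1 and DACH2 encode proteins that act with PAX proteins in the network that builds eye, muscle and kidney, and these 11 genes served as a list for comparison. H3K27me3 was present in both DMSO spike-in lists over 6 of 11, against 27.7% of all protein-coding genes. It covered at least 50% of the window of 2 of 11, SIX6 and EYA2, against 11.6% of all genes. SIX6, a regulator of eye and pituitary development, was covered over 5.71 kb in both DMSO libraries and over 5.34 and 4.34 kb with GSK126, and like PAX2 and PAX4 it had no H3K4me3. EYA2, a phosphatase and coactivator of homeodomain proteins, was covered over 177 and 192 kb with DMSO and over 73.7 and 56.8 kb with GSK126. SIX3 resembled PAX6, since its islands of 3.2 and 2.6 kb with DMSO were absent with GSK126 in the spike-in lists and the gene carried H3K4me3. In the standard lists SIX3 had an H3K27me3 island only in DMSO replicate 2, over 2.4 kb. SIX2, a factor of kidney progenitor cells, was covered over 0.991 kb in both DMSO libraries, and over 0.191 kb and not at all with GSK126. The DMSO length was the edge of islands of 10.6 and 10.4 kb that lay mostly outside the window. In the standard lists SIX2 was longer with GSK126 in both replicates, at 1.591 and 1.191 kb against 1.191 and 0.991 kb with DMSO. SIX4, SIX5, EYA1 and EYA3 had no H3K27me3 island in any list, like PAX8 and PAX9, which is 4 of 11 against 67% of all genes. The summed H3K27me3 length of the 11 genes was 38.0% ± 8.50 (SD, n = 2) of DMSO, against 77.8% for the PAX genes, and the treated shares of 44.0% and 32.0% were each below those of the PAX genes at 76.3% and 79.4%. Most of that sum was EYA2. Gene by gene, at least 50% of the DMSO length was kept in both replicates by 3 of the 6 genes with islands, against 28.1% of all such genes. The median share kept was 58.5% for these 6, 31.2% for all protein-coding genes with islands and 78.4% for the 7 PAX genes.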

How the data were processed

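ChIP-seq of H3K27me3 and H3K4me3 in 8 PC9 libraries was analysed from 14 deposited island lists. The authors aligned 50-nt tags to hg19 with BWA, removed duplicate and multiply mapping tags, removed tags at random for the standard or the spike-in normalization, and called islands per library with SICER (E-value of 1, 200-bp windows, gaps of 200 bp in H3K4me3 and of 600 bp in H3K27me3). Each H3K4me3 DMSO library had 1 list, used for both normalizations. The deposited score of each island is the authors' sum of negative log Poisson probabilities; it gave the tag density of a list and the stricter threshold. Replicate numbers, given in accession order, match the pairing in the study's supplement, and tags were removed within replicates.

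Covered lengths came from Python 3.11.15 with NumPy 2.4.6 and from GENCODE 44 mapped to GRCh37, and tag density with SciPy 1.17.1. Plots used Matplotlib 3.10.9. Covered length and density were tested on simulated data (errors of 0 bp and at most 1.9e-08%). All 9 members are named. The comparison list holds 11 genes; 1 other planned gene is not reported here. Of the 11, the genes named are the 4 with the highest covered share and those without H3K27me3. Members, lists and tests were chosen with earlier results of these data known. No test across genes was made, and lists carry no tag counts, so no counting intervals are given. PECAM1 was not matched in the annotation.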

Additional observations from a re-analysis of the deposited data

How the results depend on the processing

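Alternatives were a stricter island threshold (a score of at least 2 times the lowest of the list), a minimum island length (2000 bp for H3K27me3, 600 bp for H3K4me3), the gene body alone or with 10000 bp on both sides, other promoter windows, the DMSO standard list as reference, leaving out each replicate, and no replicate block (the ratio of the means of both replicates). With stricter islands the members' summed log2 ratio was -0.42 for H3K27me3 spike-in, -0.0571 for H3K27me3 standard and -0.0575 for H3K4me3 standard, and the minimum length gave -0.0385 for H3K4me3 standard. The members' other sums moved by less than the spread between replicates. The H3K27me3 spike-in ratio of all protein-coding genes was -1.12 with stricter islands, -1.10 with 10000 bp on both sides and -0.975 with the DMSO standard list, in place of -1.06. No ratio that had 1 sign in both replicates changed sign. The counts of members with H3K27me3 over at least 50% of the window and of members keeping at least 50% of it stayed within 1.5 times. With stricter islands, or with the DMSO standard list, 6 members in place of 7 had H3K27me3 at the start in both DMSO replicates. Members lower with GSK126 in the H3K27me3 spike-in lists were also 6 in place of 7 under each of these alternatives. With the DMSO standard list the member missing from both counts was PAX6. The 5 members with H3K27me3 at the start in both GSK126 spike-in lists became 4 with stricter islands and 6 without replicate 1.

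The counts of members that were lower with GSK126 moved more, and the cause was not tested. For H3K27me3 in the standard lists the count of 1 became 2 with stricter islands, 3 to 3 when a replicate was left out, and 4, with PAX6, with no replicate block. For H3K4me3 in the spike-in lists the count of 0 became 1 with 10000 bp on both sides, 1 to 2 when a replicate was left out, and 3 with no replicate block. For H3K4me3 in the standard lists it was 1 to 4 when a replicate was left out, the 4 being without replicate 2, and 3 with no replicate block. With any annotated coding start, an alternative chosen after seeing the data, 3 members had H3K4me3 and 1 had both marks, in place of 0. H3K4me3 replicate 2 had the lowest tag density, and the part of this density in the islands absent there was not tested.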

Other observations

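The score of an island per kb of its length can be compared between treatments in the standard lists, where tag density within a replicate was equal. This measure was chosen after the data had been seen, and it has no test with 2 replicates. In the spike-in lists the treated H3K27me3 tag density was 23.1% and 19.6% of DMSO in replicates 1 and 2. The standard lists remove this difference, so a higher score per kb with GSK126 in them does not show a larger amount of the mark. Over all H3K27me3 islands of replicate 1 the score per kb was 39.8 in DMSO and 60.1 in treated cells. Replicate 2 gave 47.9 and 108. At PAX2 it was 66.5 and 89.4 in the DMSO libraries and 163 and 319 in the treated ones. At PAX4 the DMSO libraries gave 68.8 and 84.6 and the treated ones 129 and 291. PAX2 and PAX4 thus had the highest scores per kb of the family in every one of the 4 libraries, and the highest ratios of GSK126 to DMSO, at 2.45 and 3.57 for PAX2 and 1.88 and 3.44 for PAX4. The ratios of PAX1, PAX3, PAX5 and PAX7 lay between 1.38 and 1.51 in replicate 1 and between 1.83 and 2.65 in replicate 2. PAX6 was listed in replicate 2 alone, where its score per kb was 14.6 untreated and 14.4 treated, the lowest of the family.

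The H3K4me3 score per kb of the PAX6 island was 668 and 188 in the DMSO libraries and 704 and 183 in the treated ones. The island of PAX7, which lay in an intron between the H3K27me3 islands, had 39.2 and 42.1 in replicate 1, far below the 435 and 538 of all H3K4me3 islands in the same libraries. PAX8 and PAX9 had 343 and 397 with DMSO in replicate 1.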
